A study of Oryza sativa Indica Group with 2 samples.

Results

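Glutathione S-transferases (GSTs) were followed in RNA-seq of rice seedlings. The members are the genes of the deposited table whose best Swiss-Prot match is named a glutathione S-transferase or glutathione transferase, and there are 71 of them among 35677 genes. The study took Indica rice seedlings at the stage of tillering, when side shoots form, from plants raised in Wuhan in summer, and compared the wild type (WT, 1 library) with line GRF7OE-1, which overexpresses OsGRF7 (called GRF7OE here, 1 library). OsGRF7 is a growth-regulating transcription factor whose transcript is a target of the microRNA miR396, and the comparison is of overexpression line against WT. The promoter that drives the transgene is not given in the sources used here, and GRF7OE is a single line. How many seedlings went into a library is likewise not given.

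GSTs join the tripeptide glutathione to reactive or foreign compounds, which marks the conjugates for transport into the vacuole. In plants the tau and phi classes are the large ones and act mainly on herbicides, stress products and secondary metabolites. The smaller classes have roles of their own: dehydroascorbate reductases (DHARs) recycle vitamin C, zeta enzymes take part in tyrosine breakdown, and theta enzymes reduce organic peroxides.

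Levels are the deposited FPKM, which adjusts reads for transcript length and for the depth of the library. Ratios are GRF7OE over WT. The log2 ratio has 1 FPKM added to each value and was summarised for expressed genes, those whose 2 libraries average 1 FPKM or more, while folds are plain FPKM ratios. Brackets hold a 95% exact (Clopper-Pearson) interval from the reads of the gene, which covers counting error only. Each group is 1 library, so differences describe these 2 libraries, without a test or a check by replicates. About 17021472 reads were assigned to genes in GRF7OE and 16824990 in WT, of which 33347 and 23563 belonged to GSTs. OsGRF7 (OS12G0484900) was at 70.7 FPKM in GRF7OE against 5.10 in WT, in the direction of the label.

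The GST family was higher in the GRF7OE library, and no expressed member was 1.5-fold or more lower. The summed level of the 71 genes was 2059 FPKM in GRF7OE against 1412 in WT, a ratio of 1.46. Over all genes the summed FPKM was also higher in GRF7OE, by a ratio of 1.07, so GSTs made up 0.239% of it in GRF7OE and 0.174% in WT. Of the 71 genes 47 were expressed, 17 lay below that level with some reads, and 7 were listed at 0 in both libraries. Among the 47 the median log2 ratio was 0.32, with quartiles of 0.12 and 0.66, against a median of -0.01 for all 23397 expressed genes. Of the 47, 40 had a log2 ratio above 0, where 48.3% of all genes did. At least 2-fold higher on the log2 scale were 6 members, against 3.24% of all genes, and 0 were at least 2-fold lower, against 1.25% of all genes. At the smaller size of 1.5-fold 16 members were higher, beside 9.18% of all genes, and 0 were lower, beside 4.79%. The counting interval lay above 1-fold for 26 of the 47 and below it for 2, whereas it lay above for 24.4% and below for 25.2% of all genes.

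**Figure D1:**
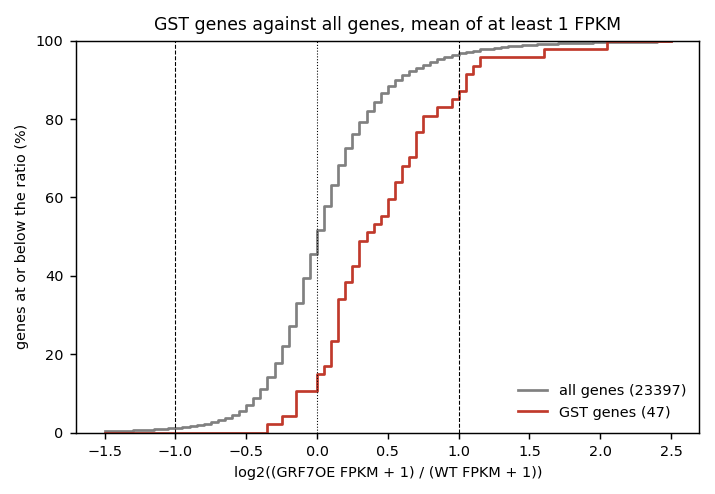
Cumulative share (y axis, percent) of genes at or below each log2 ratio of GRF7OE over WT (x axis) for the 47 expressed GST genes and all 23397 expressed genes. Dashed lines mark 2-fold and the dotted line no difference. The GST curve lies to the right of the curve of all genes up to a log2 ratio of 2.0, and the medians are 0.32 and -0.01. Above the highest GST, at 2.04, the GST curve is at 100%.

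The members past 2-fold bore tau names, phi names or names without a class. By orthologous group 3 fell with the tau names (KOG0406) and 3 with the phi names (KOG0867). The 6 were the tau-named OS10G0528900 and OS10G0529300, the phi-named OS03G0134900 and OS03G0135100, OS01G0933900 and OS01G0949750. The first pair was past 2-fold by a wide margin and the other 4 lay close to the limit, with log2 ratios from 1.01 to 1.12. With both libraries scaled to the same FPKM sum, 3 members stayed past 2-fold, beside 2.64% of all genes. OS03G0134900, OS03G0135100 and OS01G0933900 then came to 0.97, 0.93 and 0.93. The authors' deposited table calls OS03G0134900, OS10G0528900 and OS10G0529300 significant, all higher in GRF7OE. That is 3 of the 54 members with a status of OK, where 1.28% of all such genes are called higher and 0.352% lower; the other 17 members were not tested there. Its values compare 2 libraries, not the conditions.

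The ratios lay mostly above 0 at low and at high expression. The 20 members with a mean of 1 to 10 FPKM had a median log2 ratio of 0.31, the 14 at 10 to 50 FPKM one of 0.42, and the 13 at 50 FPKM or more one of 0.21. All genes in the same ranges had medians of -0.04, -0.02 and 0.09. Above 50 FPKM 12 of the 13 GSTs had a ratio above 0, and the exception, OS10G0530900, was at 70.3 FPKM in GRF7OE against 70.7 in WT.

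Leaf markers differed in the same direction as the GSTs. Of 24 leaf genes, the Rubisco small subunits and chlorophyll a-b binding proteins, 20 were expressed, with log2 ratios from 0.07 to 1.14 and a median of 0.35. With FPKM scaled to the same sum 18 of the 20 lay above 0, where 38.8% of all genes did. The summed level of the 24 leaf genes was 46282 FPKM in GRF7OE against 36248 in WT, and 3 were at 0 in both libraries. Root markers were at low levels and none was higher in GRF7OE. The silicon channel gene LSI1 (OS02G0745100) was at 6.83 FPKM in GRF7OE against 7.22 in WT, RCc3 (OS02G0662000) at 5.19 and 10.4, and the silicon exporter gene LSI2 (OS03G0107300) at 0.625 and 0.773. Reads were about 144 and 155 for LSI1, 49 and 100 for RCc3, and 20 and 25 for LSI2. Of the 2 expressed root markers, RCc3 had a counting interval below 1-fold, and that of LSI1 included 1-fold. Seed storage genes were close to absent, with 41 of 47 glutelins and prolamins at 0 in both libraries and sums of 4.25 FPKM in GRF7OE against 3.22 in WT. The part of these tissue differences in the GST result was not tested. In RNA from seedling tissue of mixed cell types, more cells of a type and more RNA per cell cannot be told apart.

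**Figure D2:**
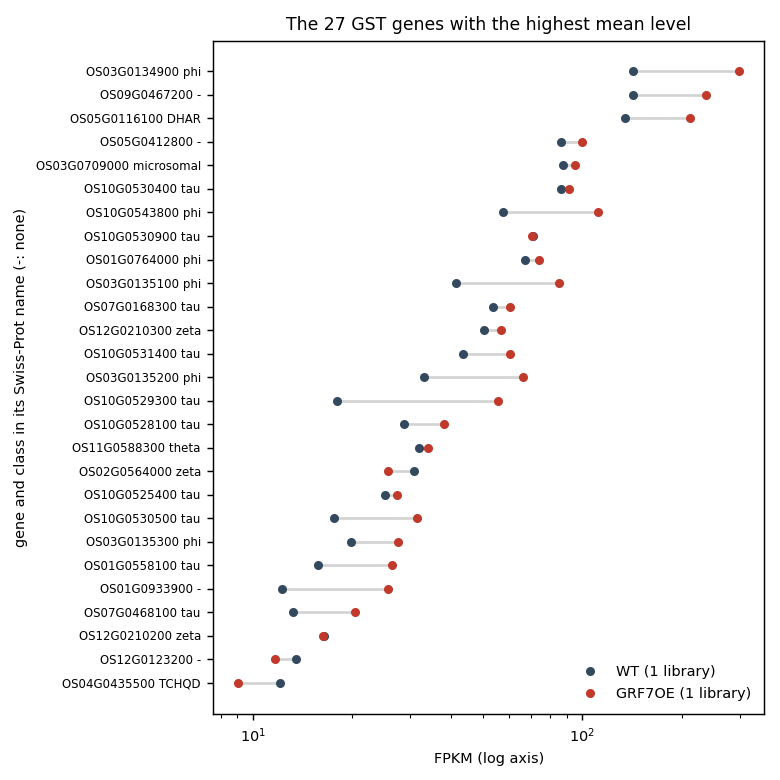
Level of the 27 GST genes with the highest mean in each library (x axis, FPKM, log scale), 1 point per library and gene, with the class in the Swiss-Prot name beside the identifier. The 3 genes at the top range from 135 to 143 FPKM in WT and from 213 to 299 in GRF7OE.

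A few genes carried much of the GST transcript. The 6 with the highest mean held 50.3% of the family's summed FPKM in GRF7OE and 48.1% in WT. First in both libraries was OS03G0134900, a phi enzyme best matched by Arabidopsis GST F10, at 299 FPKM in GRF7OE against 143 in WT. Its ratio was 2.09-fold [2.0 to 2.19], and its FDR in the authors' deposited table is 0.0255. Next came OS09G0467200, matched by maize GST 23 at 89% similarity, at 238 FPKM against 143, 1.67-fold higher [1.58 to 1.77]. The dehydroascorbate reductase OS05G0116100 followed at 213 FPKM against 135, 1.58-fold higher [1.51 to 1.66]. These genes were thus the highest in WT as well, and each was further up in GRF7OE. The other 3 of the 6 differed little. OS05G0412800, also matched by maize GST 23, was at 99.5 FPKM against 86.0, the microsomal OS03G0709000 at 95.1 against 87.2, and the tau-named OS10G0530400 at 91.0 against 86.4. Their folds were 1.16 [1.07 to 1.25], 1.09 [1.01 to 1.18] and 1.05 [0.976 to 1.14]. Of the difference of 647 FPKM between the family sums, OS03G0134900 alone made up 24.2% and the 6 genes with the largest differences 71.8%.

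Tau GSTs, the class with many stress-inducible and herbicide-detoxifying enzymes, had 32 members by name, 20 of them expressed. Of these 20, 18 had a log2 ratio above 0, 12 had a counting interval above 1-fold and 0 had one below it. Their median log2 ratio was 0.43, and the range ran from -0.16 to 2.04. In sum the tau-named genes were at 541 FPKM in GRF7OE against 412 in WT. Most of them, 25 of 32, carry identifiers of chromosome 10, and 24 of all 71 members have rice GSTU6 as their best match. Whether reads were divided wrongly among similar genes was not tested.

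A run of 20 tau-named genes on chromosome 10, OS10G0527400 to OS10G0531400, held the genes with the largest ratios. RAP identifiers are numbered along each chromosome, and members were grouped where the next number was at most 1000 away. OS10G0528900 was at 11.5 FPKM in GRF7OE against 2.03 in WT, on about 203 and 37 reads, 5.64-fold higher [3.96 to 8.23]. The next member in the run, OS10G0529300, was at 55.5 FPKM against 18.0, on 788 and 269 reads, 3.08-fold higher [2.68 to 3.55]. Both have an FDR of 0.000316 in the authors' deposited table, and among 23397 genes they ranked 90 and 209 by log2 ratio. Expressed genes at the end of the run had smaller ratios. OS10G0530400 and OS10G0530900 were alike in both libraries, with log2 ratios of 0.07 and -0.01, signs that turned under other scalings. OS10G0531400, at 60.2 FPKM against 43.6, was 1.38-fold higher [1.24 to 1.54]. For the short entry OS10G0530500, of 125 residues, the levels were 31.5 and 17.7 FPKM, a fold of 1.79 [1.49 to 2.15].

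The other expressed genes of the run were 1.23- to 1.96-fold higher. OS10G0528100 was at 38.0 FPKM against 28.7, 1.32-fold higher [1.17 to 1.49]. OS10G0528200 was at 7.87 FPKM against 5.05 and OS10G0527800 at 2.82 against 1.44, with folds of 1.56 [1.13 to 2.15] and 1.96 [1.14 to 3.46]. OS10G0529500 was at 4.80 FPKM against 3.91, a fold of 1.23 [0.840 to 1.80] that lay within counting error. The other 10 genes of the run lay under a mean of 1 FPKM. Among them OS10G0529700 had about 17 reads in GRF7OE and 4 in WT, 4.41-fold higher [1.44 to 18.0]. OS10G0529400 had 14 reads against 6, OS10G0527400 17 against 12 and OS10G0528300 7 against 3, all within counting error. OS10G0528400 went the other way with 6 reads against 13, also within counting error, and it shares its MSU identifier with OS10G0528200. OS10G0527601 had 2 reads against 4 and OS10G0530200 had 2 against 0. OS10G0529800, OS10G0530300 and OS10G0530600 were listed at 0 in both libraries. Over the 10 expressed genes, 9 had a ratio above 0 and the median was 0.51, while the 10 expressed tau-named genes elsewhere had a median of 0.23, with 9 above 0. That difference between medians was not tested.

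**Figure D3:**
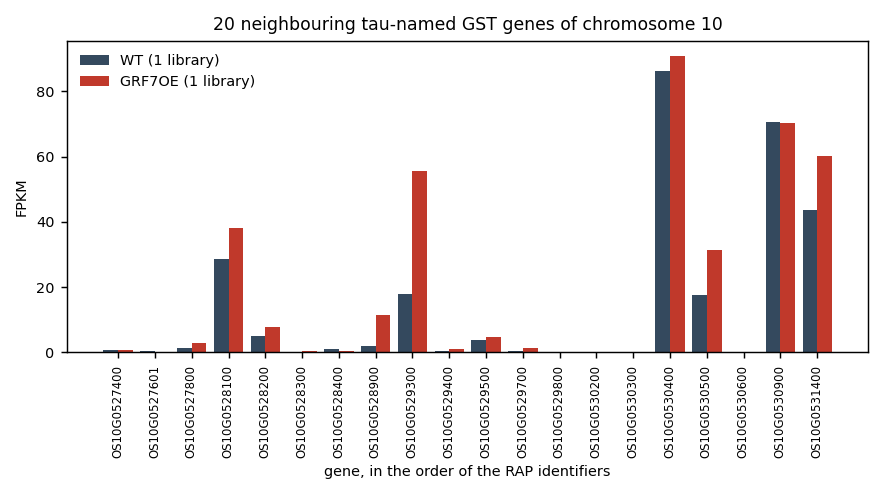
FPKM (y axis) of the 20 neighbouring tau-named GST genes of chromosome 10 in WT and GRF7OE, 1 bar per library, in the order of their RAP identifiers (x axis). OS10G0528900 and OS10G0529300 show the widest gap in ratio, while OS10G0530400 and OS10G0530900 have log2 ratios of 0.07 and -0.01.

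Non-member genes inside this run were at low levels. A receptor-like kinase gene (OS10G0527900) was at 0 in both libraries. The entry with the highest level, OS10G0528651, which has no Swiss-Prot match, was at 7.54 FPKM in GRF7OE against 5.80 in WT. Its log2 ratio was 0.33, on about 74 reads in GRF7OE and 59 in WT. Just after the run, OS10G0531700 was at 4.91 FPKM against 2.27, a log2 ratio of 0.85, on about 174 reads against 84. OS10G0531900 was at 0.50, while OS10G0532000 and OS10G0532100 were at -0.46 and -0.25. Their reads were about 43 against 25, 20 against 37 and 353 against 417. A shorter tau run just before the long one, OS10G0525400 to OS10G0525800, had log2 ratios of 0.12, 0.12 and 0.29, each within counting error.

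Tau-named genes outside these runs were fewer and none was 2-fold higher. OS01G0558100 was at 26.4 FPKM in GRF7OE against 15.8 in WT, 1.67-fold higher [1.39 to 2.01]. OS07G0468100 was at 20.5 FPKM against 13.2, 1.55-fold higher [1.29 to 1.87]. OS07G0168300, at 60.2 against 53.4, was 1.13-fold higher [1.02 to 1.24]. OS10G0365200, at 5.15 against 2.91, was 1.77-fold higher [1.11 to 2.87]. OS03G0785900, a full match to rice GSTU1, was at 4.45 FPKM against 2.82, 1.58-fold higher [1.01 to 2.5]. These genes were all higher in GRF7OE beyond counting error. The pair OS01G0692000 and OS01G0692100 was within counting error in opposite directions, at log2 ratios of 0.06 and -0.16.

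Phi GSTs, a plant class that includes the maize enzymes known for herbicide tolerance, showed the greatest gain in summed level. The 16 phi-named members summed to 674 FPKM in GRF7OE against 372 in WT, a ratio of 1.81, and made up 46.6% of the difference between the family sums. Of 10 expressed members, 9 had a log2 ratio above 0 and the median was 0.36. The class was not uniform. The 6 members whose best match is an Arabidopsis enzyme had a median of 0.96, with a range from 0.03 to 1.06. The 4 expressed members matched by rice GSTF1 or GSTF2 had a median of 0.14. Of the 6, 4 form the chromosome 3 run described next. This split by best match was not planned, and the difference was not tested.

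A run of 4 phi genes on chromosome 3 held most of that gain. OS03G0134900, described above, lies in it. OS03G0135100, matched by the chloroplast-type GST F8 of Arabidopsis, stood at 84.9 FPKM in GRF7OE against 41.4 in WT, 2.05-fold higher [1.86 to 2.26]. OS03G0135200, a 129-residue entry matched by GST F10, was at 66.1 FPKM against 33.0, 2.0-fold higher [1.74 to 2.31] but 0.98 on the log2 scale. OS03G0135300, matched by GST F11, was at 27.6 FPKM against 19.8, 1.39-fold higher [1.20 to 1.61]. All 4 counting intervals lay above 1-fold, and 3 of the 4 ratios were close to 2. Together the run was at 478 FPKM in GRF7OE against 237 in WT, and it made up 37.2% of the difference between the family sums. The chromosome 10 gene OS10G0543800, another match to GST F10, was similar, at 111 FPKM against 57.4, 1.94-fold higher [1.80 to 2.09].

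The other phi run, 8 genes of chromosome 1 from OS01G0369700 to OS01G0372400 that includes a match to maize GST 4, was lowly expressed and showed no difference beyond counting error. It summed to 9.65 FPKM in GRF7OE against 8.71 in WT, and its 3 expressed genes had log2 ratios from -0.16 to 0.27. OS01G0371200, a full match to rice GSTF1, was at 4.21 FPKM against 3.77, and OS01G0371400 and OS01G0372400 were at 1.85 against 1.36 and at 1.53 against 1.84. OS01G0764000, a full match to rice GSTF2 outside the run, was at 73.9 FPKM against 66.9, 1.10-fold higher [1.03 to 1.19]. An entry of 2578 residues, OS09G0544400, has GST F11 as its best match and was at 2.03 FPKM against 1.98. It is far longer than the other members, of which 61 have 170 to 319 residues and 9 are shorter.

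The DHARs, which use glutathione to regenerate ascorbate, had 2 members. OS05G0116100, given above, matches Arabidopsis DHAR2 at 80% similarity and held nearly all DHAR transcript. OS06G0232600, matched by the chloroplast DHAR3, rested on about 4 reads against 3, too few to show a difference of the size seen in DHAR2.

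Zeta GSTs, which act as maleylacetoacetate isomerases in tyrosine breakdown, differed in both directions and summed to 100.5 FPKM in GRF7OE against 98.4 in WT. OS02G0564000 was at 25.7 FPKM against 30.8, 1.20-fold lower [1.05 to 1.36]. OS12G0210300 was at 56.8 against 50.3, 1.13-fold higher [1.04 to 1.23]. Its neighbour OS12G0210200 was at 16.4 against 16.5 and OS11G0245100 at 1.59 against 0.906, both within counting error.

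The remaining classes had 1 member each. The theta gene OS11G0588300 was at 34.0 FPKM in GRF7OE against 31.9 in WT, 1.07-fold higher [0.957 to 1.19]. The microsomal gene OS03G0709000, of a membrane-bound family separate from the soluble GSTs, is given above. OS04G0435500, the plant gene named after bacterial tetrachlorohydroquinone dehalogenase (TCHQD), was at 9.06 FPKM against 12.1, 1.33-fold lower [1.13 to 1.58]. It and the zeta gene OS02G0564000 were the 2 expressed members whose counting interval lay below 1-fold.

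**Figure D4:**
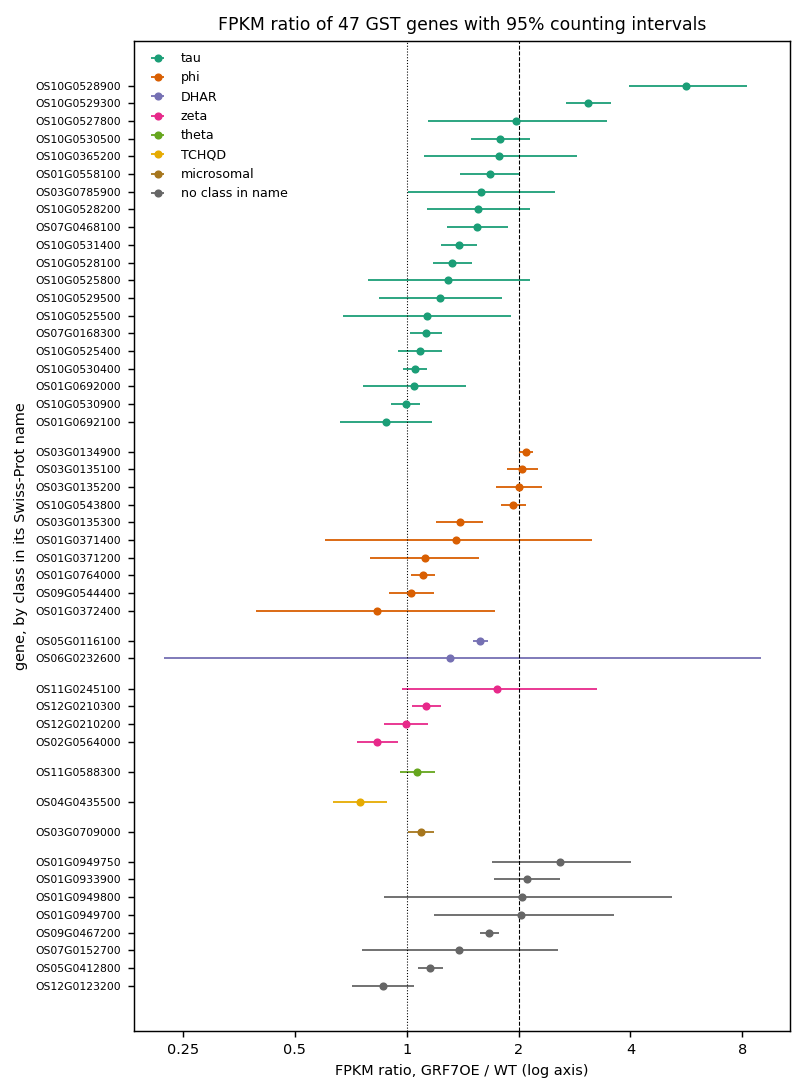
FPKM ratio of GRF7OE over WT (x axis, log scale) for the 47 expressed GST genes, by class in the Swiss-Prot name. Points are the ratios of the 2 libraries and bars the 95% counting intervals. Of the intervals 26 lie above 1-fold and 2 below it.

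Names without a class letter were borne by 14 members, and 8 of these were expressed, with 7 above 0 and a median log2 ratio of 0.58. OS01G0933900, matched by maize GST 3, an enzyme whose Swiss-Prot entry places it in the phi class, was at 25.8 FPKM in GRF7OE against 12.3 in WT, 2.10-fold higher [1.72 to 2.58]. A run of 4 genes on chromosome 1, OS01G0949700 to OS01G0950000, summed to 11.6 FPKM against 4.88. Within it OS01G0949750, matched by a tobacco GST, was at 7.59 FPKM against 2.95, on 81 and 32 reads, 2.58-fold higher [1.69 to 4.01]. OS01G0949700 was 2.04-fold higher [1.18 to 3.61], and OS01G0949800, at the same 2.04-fold, was within counting error on 18 reads against 9, while OS01G0950000 had 1 read against 0. Outside the run OS07G0152700 was at 2.71 FPKM against 1.96, within counting error. OS12G0123200 was the 1 expressed gene of the 14 with a ratio below 0, at 11.7 FPKM against 13.6 and within counting error. By the orthologous group that the table assigns, the expressed genes among them fell with the tau names (group KOG0406), except OS01G0933900, which fell with the phi names and the theta gene (group KOG0867). The median log2 ratios of these groups were 0.46 in 27 expressed genes and 0.36 in 12. OS10G0395400, matched by maize BZ2 (Bronze-2), the GST needed for anthocyanin to reach the vacuole, had 3 reads in each library.

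Neighbouring members were common. In all 43 of the 71 genes fell into 7 runs of at least 2, and 28 stood alone. Their ratios were not alike. Median log2 ratios were 1.0 for the phi run of chromosome 3, 0.65 for the run ending at OS01G0950000 and 0.51 for the long chromosome 10 run. They were 0.13 for the chromosome 1 phi run, 0.12 for the short chromosome 10 run, 0.08 for the chromosome 12 pair and -0.05 for OS01G0692000 with OS01G0692100.

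Other genes that make, use or move glutathione lay closer to WT in their median. In 8 related lists, drawn up by Swiss-Prot name, 78 genes were expressed, 42 with a log2 ratio above 0 and 36 below. Their median was 0.05, which became -0.03 with FPKM scaled to the same sum. Under that scaling the median of all genes was -0.09 and that of the GSTs 0.26. At least 2-fold higher on the log2 scale with 1 FPKM added were 0 of the 78, against 3.24% of all genes, and 4 were at least 2-fold lower, against 1.25%. The difference from the GSTs was not tested.

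Glutathione synthesis genes were close to WT, with 5 members and a median of 0.06. With FPKM scaled to the same sum it was -0.03, beside -0.09 for all genes. The glutathione synthetase genes OS12G0263000 and OS11G0642800 had log2 ratios of 0.20 and -0.20. Glutathione reductases and peroxidases, which cycle glutathione between its reduced and oxidised forms, had a median of 0.09 in 8 genes. After scaling FPKM to the same sum this median was 0.01. The members with the largest ratios, OS04G0556300 and OS06G0185900, were at 0.17 and 0.16. For glutathione breakdown 4 of 5 genes were above 0, where 48.3% of all genes were, with a median of 0.14. After scaling to the same sum 3 of the 5 lay above 0, where 38.8% of all genes did, and the median was 0.05. Gamma-glutamyltranspeptidase OS01G0151500 stood at 20.3 FPKM against 12.6, 1.60-fold higher [1.38 to 1.87]. The gamma-glutamylcyclotransferase-like OS03G0854000 was 1.35-fold higher [1.12 to 1.63], while OS11G0139900, with the same Swiss-Prot name, was 1.35-fold lower [1.09 to 1.69]. Of 6 glyoxalases, which clear methylglyoxal with glutathione, 4 were above 0 and the median was 0.11. After scaling FPKM to the same sum 3 of the 6 lay above 0 and the median was 0.02. The lactoylglutathione lyase genes OS02G0280500 and OS08G0191700 were 1.41-fold [1.22 to 1.63] and 1.20-fold higher [1.17 to 1.23].

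Ascorbate peroxidases and monodehydroascorbate reductases, which share the ascorbate cycle with the DHARs, had a median of 0.07 in 15 genes. With FPKM scaled to the same sum it was -0.02, beside -0.09 for all genes. Monodehydroascorbate reductase OS02G0707000 stood at 6.35 FPKM against 3.13, 2.03-fold higher [1.33 to 3.14]. The chloroplast ascorbate peroxidase OS12G0178200, at 0.807 against 1.41, was within counting error. ABC transporters of subfamily C, which carry glutathione conjugates into the vacuole, had 3 of 11 above 0 and a median of -0.08. All genes had 48.3% above 0 and a median of -0.01. Of the 11 counting intervals 2 lay above 1-fold, 2 below it and 7 included it. OS01G0173900 was at 9.87 FPKM against 14.4, 1.45-fold lower [1.34 to 1.57], and OS01G0356400 was 1.26-fold higher [1.18 to 1.33].

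Glutaredoxins, small glutathione-dependent oxidoreductases, differed in both directions, with 13 of 27 above 0 and a median of -0.02. With FPKM scaled to the same sum 8 of the 27 lay above 0, where 38.8% of all genes did. At least 2-fold lower on the log2 scale were 4 of the 27 glutaredoxins, against 1.25% of all genes. Putative glutaredoxin-C14 (OS12G0538600) was at 17.8 FPKM in GRF7OE against 55.6 in WT, 3.13-fold lower [2.19 to 4.55]. Glutaredoxin-C10 (OS11G0655900) was at 21.4 against 62.1, 2.90-fold lower [2.40 to 3.54], with an FDR of 0.0069 in the authors' deposited table, which calls it significant. The other pair, named after their values were seen, was C12 (OS11G0656400) with 3 reads against 14 and C13 (OS11G0656700) with 4 against 16. On the higher side, also named after their values were seen, monothiol glutaredoxin-S2 (OS01G0194600) was at 12.9 FPKM against 6.0, a plain fold of 2.14 [1.47 to 3.17] and 0.99 on the log2 scale. OS03G0648800, with a glutaredoxin domain, had 19 reads against 7, a plain fold of 2.94 [1.19 to 8.29] and 0.82 on the log2 scale.

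The IN2-1 proteins, lambda-type relatives of the GSTs that carry a different Swiss-Prot name, had 1 expressed gene. OS03G0283100 was at 101 FPKM in GRF7OE against 54.7 in WT, 1.84-fold higher [1.72 to 1.97]. Its neighbours OS03G0283000 and OS03G0283200 had at most 6 reads per library.

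**Figure D5:**
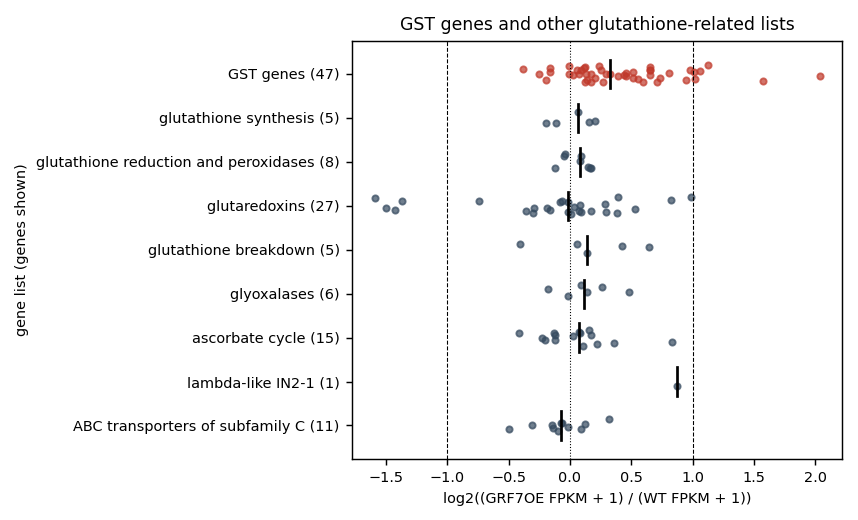
Log2 ratio of GRF7OE over WT (x axis) of each expressed gene in the GST family and in 8 glutathione-related lists (rows). Each point is 1 gene, the black bar is the list's median and dashed lines mark 2-fold. The GST median of 0.32 lies above those of the lists with more than 1 gene, and 4 glutaredoxins lie below -1.

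Below the mean of 1 FPKM the 17 GSTs with reads summed to 7.77 FPKM in GRF7OE against 5.97 in WT. In this range 5 genes had a plain ratio of 2-fold or more, on at most 17 reads, and OS10G0529700 was the 1 of them whose interval did not include 1-fold. OS05G0148900, matched by rice GSTF1, had 0 reads in GRF7OE and 4 in WT. OS01G0370200 had 8 reads against 15, OS01G0371500 had 8 against 3, and OS01G0369700 had 13 against 7. At most 5 reads per library were found for OS03G0643700, matched by tobacco parA, OS09G0367700, matched by Arabidopsis GST U27, OS03G0595600 and OS01G0374000. Besides the 3 genes of the long chromosome 10 run, OS01G0353400, OS01G0370600, OS01G0370900 and OS10G0481300 were listed at 0 in both libraries.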

How the data were processed

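Total RNA came from TRIzol extracts after DNase I, with Illumina library protocols, per the labels' protocols. The submitters' processing notes name Bowtie and Cuffdiff. Versions and genome build were not given in the sources used here. The authors deposited 1 table with FPKM, a normalised count signal, p-value, FDR and log2 ratio per gene. One column heading in it names an RNAi sample in place of the overexpression line, and that column was not used. The deposited log2 ratios and p-values were not used either. Reads were estimated by dividing the deposited count signal by its most frequent value, 0.963 in GRF7OE and 0.954 in WT. This gave whole numbers within 0.05 for 99.3% and 99.2% of values under 10000, and for all 71 members in GRF7OE and 70 in WT. Intervals use these reads and cover counting error only. No genome sequence was used, chromosomes are those in the RAP identifiers, and 0 members could be linked to the RefSeq gene table. Named were the members at 2-fold or more, those the authors call, the 6 with the highest mean, those of classes with fewer than 4 members, the longest run of neighbours and the 2 with the largest ratio per related list; the zeta genes and any others named were added after their values were seen. Members and lists were chosen with earlier results of these data known. The counting steps were tested on simulated reads. Alternatives were other pseudocounts, filters, scalings, fold sizes, member rules and the count signal. Scripts ran in Python 3.11.15 with pandas 2.3.3 and NumPy 2.4.6, intervals used SciPy 1.17.1, and plots were drawn with Matplotlib 3.10.9.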

Additional observations from a re-analysis of the deposited data

How the results depend on the processing

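The number of GSTs past 2-fold higher was 6 or 7 with pseudocounts of 0.1 and 0.5, either filter, the median ratio scaled to 1, the count signal and the wider member rule. Of all genes 2.59% to 4.90% were past 2-fold higher in these settings. With FPKM scaled to the same sum the GST number was 3, beside 2.64% of all genes. That scaling shifts the median of all genes by -0.09. At fold sizes of 1.5 and 3 the number was 16 and 1, beside 9.18% and 0.872% of all genes. On the lower side the GST number was 0 in every setting run, where 0.227% to 4.79% of all genes were lower. The number with a ratio above 0 was 26 of 32 under the stricter filter (mean of 5 FPKM or more), fewer because fewer genes pass. It was 51 of 64 with no filter, and 37 to 42 of 46 to 48 genes elsewhere. Of all genes 38.8% to 51.2% lay above 0 in these settings. The family median stayed between 0.25 and 0.42 in all settings. The phi-named median came to 0.96 under the stricter filter, since that filter removes the lowly expressed chromosome 1 genes and OS09G0544400, and was 0.21 with no filter. Intervals above 1-fold numbered 21 to 26 over the scalings and the count signal. Grouping by orthologous group and leaving out the 2578-residue entry were chosen after seeing the data, as were the scalings of the related and leaf lists, and gave a tau median of 0.46 for the former and a phi median of 0.46 for the latter. For 25 of the expressed members named above, 122 of 125 alternative log2 ratios stayed within counting error. The other 3 were those of OS03G0134900, OS09G0467200 and OS05G0116100 with FPKM scaled to the same sum, at 0.97, 0.64 and 0.56. These are the 3 members with the highest mean. The yardstick was the counting error of each gene, with a median half-width of 0.27 on the log2 scale. Genes with few reads can therefore hardly fall outside it. OS11G0245100, for one, stayed within it though it went from 0.44 to 0.82 with the count signal. Signs changed for 3 genes near 0. No paired analysis was possible because each group has 1 library, and for the same reason leaving out a replicate could not be run. Depth limits the members under 1 FPKM.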
